A study of Mus musculus with 5 samples.

Results

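The genes described here are the bone morphogenetic protein (BMP) and transforming growth factor beta (TGF-beta) family: its ligands, receptors and Smad proteins. Members were taken by name, as every row whose symbol begins with Bmp, Gdf, Tgfb, Inhb, Acvr or Smad in the form used for the family. This gave 47 of 18044 genes. Of these, 43 encode family members. The other 4 (Bmp1, Bmp2k, Tgfb1i1 and Tgfbrap1) share the beginning of the name but encode no ligand, receptor or Smad. The mean over the 5 libraries reached a normalized count of 5 in 44 members, which were tested. The GDF ligands Gdf6 and Gdf7 and the type I receptor Acvr1c did not reach it, with 0 to 17 reads in any library.

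RNA was sequenced from cells of the junction between the renal pelvis and the kidney of C57BL/6 mouse embryos at E18.5, dissected from pooled embryos and sorted with an antibody against HCN3, a channel of hyperpolarization-activated current. All groups share this strain, stage, tissue and digestion with collagenase. There were 2 libraries titled HCN3-positive and 3 titled HCN3-negative. Nothing states that the libraries of a group came from separate pools of embryos, so p-values measure the spread between these libraries, which may be technical.

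Ligands of this family are secreted dimers that bring together type I and type II receptor kinases on the cell surface. The type I receptor then phosphorylates receptor Smads, Smad1, Smad5 and Smad9 for most BMPs and Smad2 and Smad3 for TGF-beta and activins, which enter the nucleus with Smad4, while Smad6 and Smad7 restrain the pathway. In the developing urinary tract, BMP signalling is known for its part in the growth of the ureter and its smooth muscle coat, and TGF-beta for its part in matrix production and in the control of immune cells.

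The libraries held 24588864 to 39034478 reads in genes. The targeted gene did not follow the titles: Hcn3 had a normalized count of 0 and 44.5 in HCN3-positive 1 and 2, and of 103, 32.2 and 41.9 in HCN3-negative 1, 2 and 3. The libraries are therefore called by their labels throughout. The fold column of the authors' deposited table divides the libraries differently from the titles: in 100% of its rows it equals the mean of HCN3-positive 2, HCN3-negative 1 and HCN3-negative 3 over the mean of HCN3-positive 1 and HCN3-negative 2, and no other pair as denominator matched more than 5.51%. The columns of the table name no condition for these groups. The name of the table sets HCN3-negative against HCN3-positive, but does not say which libraries stand on each side. The groups are called here the first set (HCN3-positive 1 and HCN3-negative 2) and the second set (the other 3 libraries). Hcn3 did not overlap between these sets, at 0 and 32.2 in the first and 44.5, 103 and 41.9 in the second. The gap from 32.2 to 41.9 is small, and 26.1% of all genes tested were likewise higher in every library of the second set. A link of the sets to the HCN3 sort was not tested. All 13 measured leukocyte and macrophage markers were higher in both libraries of the first set than in any of the second, and their summed normalized counts were 417365 to 535389 against 1035 to 3216. All 9 smooth muscle markers (4450 to 6538 in the first set, 24511 to 132204 in the second), all 7 of renal stroma and ureteric mesenchyme (1723 to 2836, 27576 to 41811), all 6 of fibroblast matrix (10257 to 10706, 89349 to 197140) and all 7 of endothelium (5785 to 6962, 26986 to 98024) stood the other way. Of the other lists, 5 of 6 podocyte, 5 of 5 nephron progenitor and 1 of 6 erythroid markers were higher in every library of the second set, 1 of 8 collecting duct markers was higher in both of the first, and no urothelium or proximal tubule marker separated the sets. Within the second set HCN3-negative 3 stood apart on several lists. Its podocyte sum was 307419, against 36986 in HCN3-positive 2 and 48978 in HCN3-negative 1, and its erythroid sum 55144, against 3736 and 1059. Its endothelium sum was also the highest, at 98024 against 26986 and 44318. Its smooth muscle sum was the lowest, at 24511 against 96563 and 132204, as was its urothelium sum, at 295 against 1811 and 7301. No marker was at 0 in every library of a set. The part of these differences in the results on the family was not tested, and in such sorted pools fewer cells of a type and less RNA per cell cannot be told apart.

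By the labels, no member passed. With limma at an adjusted p under 0.05, 0 of 44 members were higher in libraries labelled positive and 0 were lower, and the share of all 16579 genes tested was 0.0% in each direction. At an unadjusted p under 0.05, 2 members (Bmp3 and Bmp8b, 4.55%) passed, against 0.947% of all genes, and edgeR and DESeq2 called 0 members. Each label group holds libraries of both sets, so its spread includes the difference between the sets. The lack of calls by label therefore does not show equal levels. Between the sets of the deposited table, 13 of 44 members were higher in the second set by limma, where 9.88% of all genes tested were, and 3 of 44 were higher in the first set, where 10.6% were. In both directions together 16 members (36.4%) were called, against 20.5% of all genes, and 24 (54.5%) had an unadjusted p under 0.05, against 33.4%. The median log2 fold change, second set over first, was 0.69 over the 44 members, also with members at 0 in the first set placed at their bound, and 0.07 over all genes, and 29 members lay above 0 (65.9%), against 53.5% of all genes. Without the 4 rows that encode no ligand, receptor or Smad, 11 members were higher in the second set and 2 in the first.

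At an adjusted p under 0.05, the authors' deposited table holds 11 of 47 as higher in the second set, where 6.09% of all its genes are, and 3 of 47 as higher in the first, where 8.1% are. In both directions this is 14 members against 14.2% of all genes. Its calls and those of limma shared 13 members, and 17 were called by at least 1 of the methods. Of the tested members, 21 did not overlap between the sets and were higher in the second, where 26.1% of all genes were, and 6 did not overlap and were higher in the first, where 23.5% were. The call counts depend on single libraries: leaving out 1 library at a time left 5 to 11 members higher in the second set (6 without HCN3-positive 1, 5 without HCN3-positive 2, 7 without HCN3-negative 1, 11 without HCN3-negative 2 and 9 without HCN3-negative 3), and 2 to 3 higher in the first (2 without HCN3-negative 1 or HCN3-negative 2, otherwise 3).

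**Figure D1:**
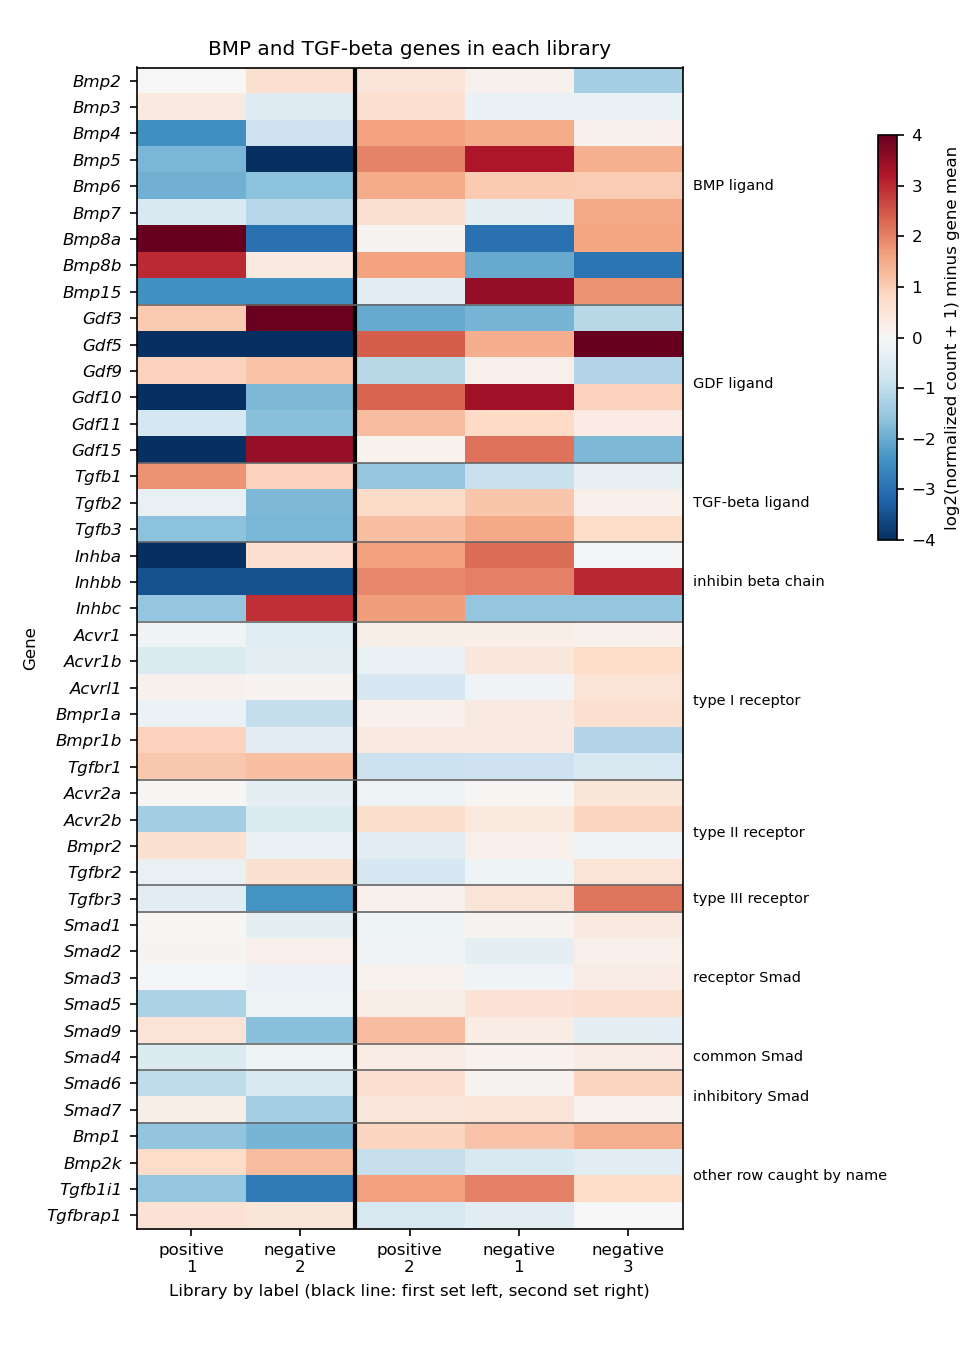
Log2(normalized count + 1) of each member in the 5 libraries, shown as the difference from the member's own mean over the libraries (colours end at 4 and -4), with the 44 tested members grouped by role and a black line between the sets. Tgfb1, Tgfbr1 and Bmp2k are high in HCN3-positive 1 and HCN3-negative 2, while most called ligands are low in those libraries.

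The TGF-beta ligands moved in opposite directions between the sets: Tgfb1 was higher in the first set, Tgfb3 in the second. In the sentences below, normalized counts are given first for HCN3-positive 1 and HCN3-negative 2, then for HCN3-positive 2, HCN3-negative 1 and HCN3-negative 3. Tgfb1, the isoform that immune cells are best known for (chromosome 7, 25687002 to 25705077, plus strand; coordinates are those of GENCODE M21 on GRCm38, the assembly of mm10), stood at 2838 and 1540 in the first set and at 279, 439 and 651 in the second. Both libraries of the first set exceeded all of the second, by 4.80-fold in the means. The limma log2 fold change, second over first, was -2.28 (SE 0.45, n = 3 and 2, adjusted p = 0.0140), and the authors' deposited table gives a fold of 0.209 with an adjusted p of 0.00566. The limma call was lost without HCN3-positive 1 (adjusted p = 0.130) and without HCN3-negative 1 (adjusted p = 0.0608).

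Tgfb3, an isoform known from palate and mesenchyme development (chromosome 12, 86056745 to 86079041, minus strand), stood at 176 and 152 in the first set and at 1268, 1565 and 922 in the second. Its lowest value in the second set lay well above its highest in the first. The log2 fold change was 2.89 (SE 0.35, limma adjusted p = 0.00247), and the call held without any 1 of the 5 libraries. Tgfb2, known from heart and epithelial-mesenchymal development (chromosome 1, 186622792 to 186705989, minus strand), stood at 331 and 114 against 691, 875 and 464, again without overlap. It passed in the authors' deposited table (fold 3.04, adjusted p = 0.0198) and not in limma (log2 fold change 1.74, SE 0.55, adjusted p = 0.0684), with 2.51 without HCN3-positive 1 and 0.98 without HCN3-negative 2.

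**Figure D2:**
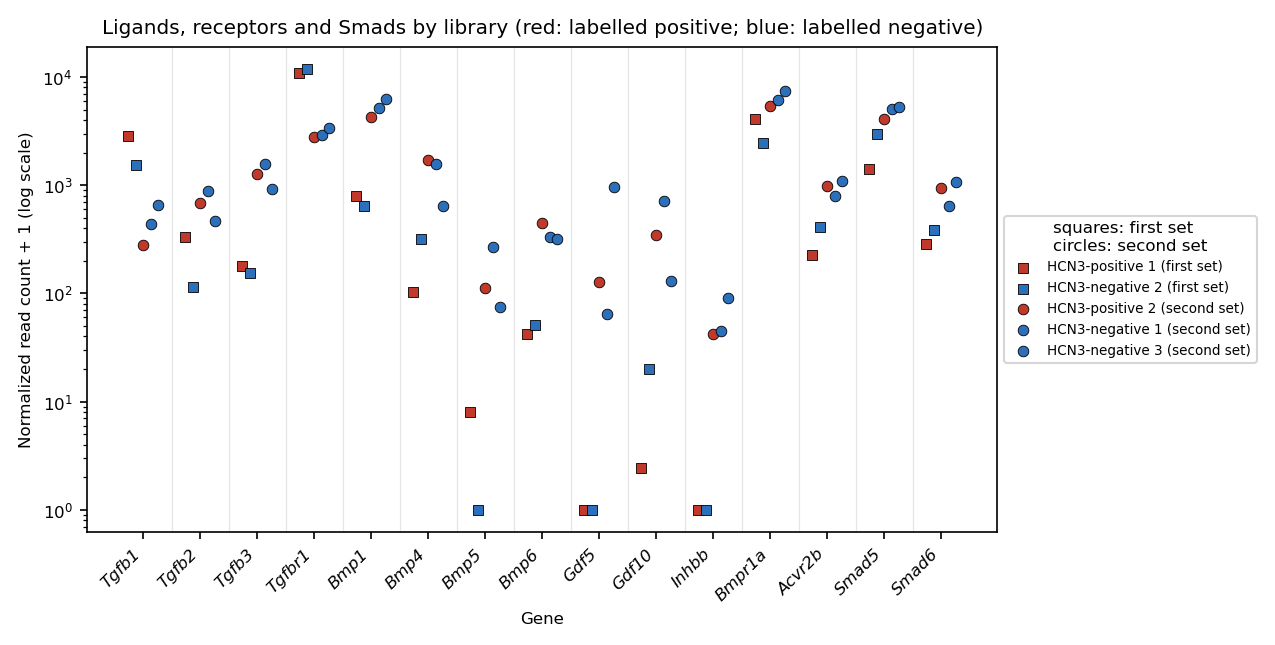
Normalized count + 1 (log axis) of 15 members in each of the 5 libraries, squares for the first set, circles for the second, red for libraries labelled positive and blue for those labelled negative. In Tgfb1 and Tgfbr1 the squares lie above all circles, and in the other 13 members they lie below.

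Divided by exon length, so that genes can be compared, the summed level of the 3 TGF-beta ligands differed between the sets by less than their SDs, at 521 ± 213 normalized counts per kb in the first (SD, n = 2) and 577 ± 112 in the second (SD, n = 3). Its makeup did differ. Tgfb1 made up 83.1% ± 0.856 of it in the first set, against 16.4% ± 9.06 in the second, while Tgfb3 made up 9.95% ± 3.10 and 63.6% ± 6.20 (SD, n = 2 and 3). Tgfb2 took 6.92% ± 2.25 and 20.0% ± 2.88. In single libraries, the share of Tgfb1 was 83.7% and 82.5% in the first set, against 10.1%, 12.4% and 26.8% in the second, so HCN3-negative 3 held the largest share of its set. Without division by length, a choice made after seeing the data, Tgfb1 took 85.0% and 19.9%, Tgfb2 8.11% and 28.0%, and Tgfb3 6.84% and 52.1%. These shares come from the same counts as the folds above and carry no test of their own.

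**Figure D3:**
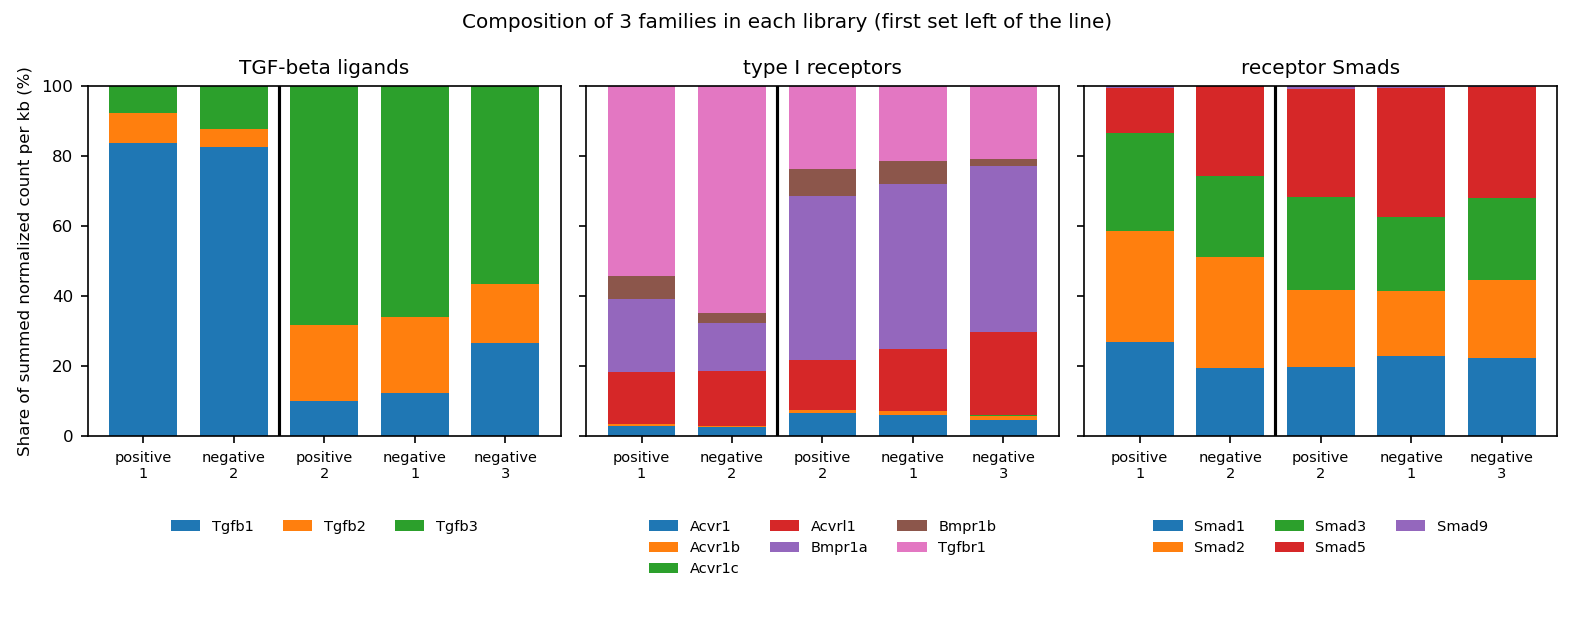
Share of each member in its family's summed normalized count per kb, in percent, with 1 stacked bar for each of the 5 libraries, for TGF-beta ligands, type I receptors and receptor Smads. The black line parts the first set (left) from the second. Tgfb1 fills 83.7% and 82.5% of the TGF-beta ligand bars of HCN3-positive 1 and HCN3-negative 2, and Tgfb3 56.6% to 68.2% of the other 3.

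The promoters of 4 members called by limma are shown. They are a ligand and its receptor, both higher in the first set (Tgfb1, Tgfbr1), and a ligand and an inhibitory Smad, both higher in the second (Bmp4, Smad6). A link within these pairs was not tested. Each is the stretch of 250 bases before the start site in RefSeq on GRCm38.p6, read 5′ to 3′ on the gene's own strand, at chr7:25686752-25687001 (plus), chr4:47352972-47353221 (plus, the first of 2 starts), chr14:46390670-46390919 (minus) and chr9:64022060-64022309 (minus). Capitals mark the GC-rich Smad-binding letters GGCGCC.
Tgfb1: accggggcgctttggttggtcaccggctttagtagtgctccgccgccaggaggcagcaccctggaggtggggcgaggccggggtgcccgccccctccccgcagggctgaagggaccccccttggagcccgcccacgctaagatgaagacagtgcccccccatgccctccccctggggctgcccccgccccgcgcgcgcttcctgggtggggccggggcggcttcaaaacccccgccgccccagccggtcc
Tgfbr1: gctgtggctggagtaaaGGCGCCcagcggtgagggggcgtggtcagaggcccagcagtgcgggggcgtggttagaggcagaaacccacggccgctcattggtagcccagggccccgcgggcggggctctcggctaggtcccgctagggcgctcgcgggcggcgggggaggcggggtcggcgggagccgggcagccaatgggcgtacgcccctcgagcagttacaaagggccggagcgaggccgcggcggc
Bmp4: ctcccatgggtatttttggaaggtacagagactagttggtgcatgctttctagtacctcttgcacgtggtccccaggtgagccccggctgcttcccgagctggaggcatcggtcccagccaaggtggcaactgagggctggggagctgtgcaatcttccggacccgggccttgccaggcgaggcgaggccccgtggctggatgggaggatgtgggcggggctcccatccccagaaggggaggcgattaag
Smad6: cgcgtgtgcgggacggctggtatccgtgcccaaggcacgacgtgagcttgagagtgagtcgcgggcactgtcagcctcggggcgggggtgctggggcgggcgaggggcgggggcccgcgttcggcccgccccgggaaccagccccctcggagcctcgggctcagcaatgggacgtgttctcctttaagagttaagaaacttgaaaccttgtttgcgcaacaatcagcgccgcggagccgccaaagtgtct
Their GC content is 75.2%, 74.8%, 63.2% and 66.8%. RefSeq promoters were matched for 32 of the 47 members, with 40 start sites. On both strands, GGCGCC was found in 7 of these 40 (in Bmp2k, Bmpr1a, Bmpr2, Smad5, Smad9, Tgfbr1 and Tgfbrap1) and in 9.59% of all 32851 promoters of the same length. In Tgfbr1 it lies 233 to 228 bases before the start. The Smad palindrome GTCTAGAC, the PU.1 letters GAGGAAGT and the CArG box bound by serum response factor were in 0 of the 40, and in 0.167%, 2.44% and 1.47% of all promoters, so no match overlapped another. A match is a description of the letters and not a binding site. Promoters of the other 15 members, Acvrl1, Bmp1, Bmp2, Bmp3, Bmp7, Gdf3, Gdf5, Gdf6, Gdf9, Smad2, Smad4, Smad7, Tgfb1i1, Tgfb3 and Tgfbr3, were not analysed here.

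Among BMP ligands, Bmp4, Bmp5 and Bmp6 were higher in the second set, and none of the 9 was higher in the first. The limma shares of all genes were 9.88% and 10.6%. Bmp6, a ligand also known for iron control in the liver (chromosome 13, 38345107 to 38500302, plus strand), stood at 40.9 and 49.9 in the first set and at 443, 328 and 317 in the second. The sets were far apart, with a log2 fold change of 2.96 (SE 0.50, limma adjusted p = 0.00828). The call was lost without HCN3-positive 2 (limma adjusted p = 0.0561). Bmp6 shares exon sequence with Txndc5 on the opposite strand, and nothing states that the libraries kept strand, so reads of the pair cannot be separated there.

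Bmp4, the ligand known from the mesenchyme around the ureter (chromosome 14, 46383520 to 46390669, minus strand), stood at 101 and 317 in the first set and at 1706, 1583 and 639 in the second. HCN3-negative 3 was the lowest of its set and still above both of the first. The log2 fold change was 2.73 (SE 0.63, limma adjusted p = 0.0247), and the authors' deposited table gives a fold of 6.25 (adjusted p = 0.0212). The call was lost without HCN3-positive 1 (limma adjusted p = 0.164, log2 fold change 1.91), HCN3-positive 2 (0.101) or HCN3-negative 1 (0.107), the log2 fold change was 3.55 without HCN3-negative 2, and limma-voom gave an adjusted p of 0.0832.

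Bmp5, a ligand known from skeletal and soft tissue growth (chromosome 9, 75775364 to 75900310, plus strand), was near the floor in the first set, at 7.05 (5 reads) and 0, and stood at 111, 265 and 74.4 in the second. The authors' deposited table gives a fold of 42.6 (adjusted p = 0.0119), and the limma log2 fold change was 5.53 (SE 1.16, adjusted p = 0.0179), which depends on the added 1 at such low values. The call was lost without HCN3-positive 2 (limma adjusted p = 0.0744), HCN3-negative 1 (0.0775) or HCN3-negative 2 (0.0547, log2 fold change 4.02), and with edgeR (0.0550) and limma-voom (0.0763). Without HCN3-positive 1 the log2 fold change was 7.03.

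Bmp7, a ligand required for kidney development (chromosome 2, 172868012 to 172940321, minus strand), had the highest mean of the BMP ligands. It stood at 2568 and 1788 in the first set and at 5903, 3006 and 11218 in the second, without overlap. The difference did not pass in limma (log2 fold change 1.45, SE 0.51, adjusted p = 0.0959). It passed without HCN3-negative 1 (limma adjusted p = 0.0389) and in DESeq2 (adjusted p = 0.0163). Bmp2, a ligand of bone and heart development, overlapped between the sets, at 677 and 1035 against 967, 750 and 265. The summed level of the BMP ligands per kb was 1076 ± 114 in the first set, against 2745 ± 726 in the second (SD, n = 2 and 3). Bmp7 took 49.98% and 57.2% of it, Bmp4 9.05% and 23.6%, and Bmp2 22.9% and 7.47%, as means of the sets. Bmp8a, Bmp8b and Bmp15 were low. Bmp15, known from the oocyte, stood at 0 in both libraries of the first set and at 2.97, 61.5 and 17.7 in the second.

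Of the 6 GDF ligands tested, Gdf5 and Gdf10 were higher in the second set and none in the first, beside 9.88% and 10.6% of all genes. Gdf5, known from joint development (chromosome 2, 155941023 to 155945367, minus strand), had 0 reads in both libraries of the first set and stood at 126, 64.1 and 954 in the second. Against a floor of 3 reads in each library of the first set, its mean was at least 101-fold higher in the second set, and at least 25.2-fold higher without HCN3-negative 3. It was called by limma (adjusted p = 0.00769), not by the authors' deposited table (adjusted p = 0.134), and the limma call was lost without HCN3-positive 1 (adjusted p = 0.0728) and with limma-voom (0.172). Gdf10, also called BMP3b (chromosome 14, 33923587 to 33937983, plus strand), stood at 1.41 (1 read) and 18.9 against 348, 707 and 129. Its log2 fold change was 5.52 (SE 1.15, limma adjusted p = 0.0173), with a fold of 38.9 in the authors' deposited table (adjusted p = 0.0354). The call was lost without HCN3-positive 1 (limma adjusted p = 0.105, log2 fold change 4.0007), HCN3-positive 2 (0.0776) or HCN3-negative 1 (0.0811) and with limma-voom (0.122), and the log2 fold change was 7.04 without HCN3-negative 2 and 6.17 without HCN3-negative 3.

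The other GDF ligands did not pass in limma. Gdf3, a nodal-like ligand, was the one of them that leaned towards the first set most, at 19.7 and 158 against 1.48, 1.78 and 3.72 (log2 fold change -4.17, limma adjusted p = 0.0512). It passed under other settings, with an adjusted p of 0.0337 in edgeR and 0.000831 in DESeq2, and in limma 0.0474 without the filter, 0.0492 with a pseudocount of 5 and 0.0413 without HCN3-positive 1 (log2 fold change -5.63). Without HCN3-negative 2 its log2 fold change was -2.70. Gdf11, a ligand of axial patterning, stood at 22.6 and 11.1 against 90.5, 65.9 and 47.4, and Gdf9, an oocyte ligand, at 109 and 128 against 25.96, 66.8 and 25.1. Neither overlapped between the sets. Gdf15, a stress-induced ligand, ranged from 0 to 180 with no separation.

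Inhibin beta chains form activins and inhibins. Inhbb (chromosome 1, 119415465 to 119422248, minus strand) had 0 reads in both libraries of the first set and stood at 41.5, 43.7 and 90.2 in the second. Against a floor of 3 reads per library its mean was at least 15.5-fold higher, or at least 11.3-fold without HCN3-negative 3, and the limma call (adjusted p = 0.00744) held without any 1 library. Inhba stood at 0 and 34.4 against 68.2, 105 and 20.5, which overlapped and did not pass (log2 fold change 3.18, limma adjusted p = 0.223). It passed without HCN3-negative 2 (limma adjusted p = 0.0420, log2 fold change 5.76), and its log2 fold change was 0.61 without HCN3-positive 1. Inhbc, at 0 to 21.1, showed no separation.

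Among the type I receptors, Tgfbr1 was higher in the first set and Bmpr1a in the second. Tgfbr1, the kinase of the TGF-beta receptor pair (chromosome 4, 47353222 to 47414931, plus strand), stood at 10872 and 11840 in the first set and at 2801, 2884 and 3369 in the second. Values within each set lay close together and the sets were 3.76-fold apart in their means. The log2 fold change was -1.91 (SE 0.18, limma adjusted p = 0.000972), with a fold of 0.266 in the authors' deposited table (adjusted p = 5.07e-06), and the limma call held without any 1 library. Bmpr1a, or ALK3, a main BMP type I receptor (chromosome 14, 34410734 to 34503341, minus strand), stood at 4084 and 2432 against 5383, 6156 and 7417. The difference was small and near the threshold, with a log2 fold change of 0.99 (SE 0.27, limma adjusted p = 0.0423). It did not pass in the authors' deposited table (fold 1.94, adjusted p = 0.0751) or in edgeR (adjusted p = 0.0659), and leaving out any 1 library ended the limma call (adjusted p of 0.0535 without HCN3-positive 1, 0.0812 without HCN3-positive 2, 0.128 without HCN3-negative 1, 0.173 without HCN3-negative 2 and 0.0981 without HCN3-negative 3).

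Per kb of exon, Tgfbr1 made up 59.5% ± 7.53 of the type I receptor level in the first set, against 22.04% ± 1.52 in the second, and Bmpr1a 17.3% ± 5.12 and 47.1% ± 0.196 (SD, n = 2 and 3). The leading type I receptor was thus Tgfbr1 in both libraries of the first set and Bmpr1a in all 3 of the second. Acvrl1, the ALK1 receptor of endothelium, took 15.2% and 18.6%, and its counts overlapped at 1949 and 1855 against 1090, 1560 and 2508. Acvr1, or ALK2, stood at 450 and 354 against 585, 594 and 560, apart but with no call.

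Of the type II receptors, only Acvr2b was called in limma between the sets. Acvr2b, a receptor of activins and several GDFs (chromosome 9, 119402118 to 119434995, plus strand), stood at 227 and 408 in the first set and at 978, 791 and 1082 in the second. The sets did not overlap, and the log2 fold change was 1.63 (SE 0.37, limma adjusted p = 0.0231), with a fold of 2.99 in the authors' deposited table (adjusted p = 0.0197). The limma call was lost without HCN3-positive 1 (adjusted p = 0.104), HCN3-positive 2 (0.0918), HCN3-negative 1 (0.0687) or HCN3-negative 3 (0.0690). Tgfbr2, the partner of Tgfbr1 (chromosome 9, 116084293 to 116175360, minus strand), did not follow it: it stood at 6565 and 12375 against 5088, 7171 and 11753, with a log2 fold change of -0.26 (limma adjusted p = 0.707). It was the most abundant type II receptor per kb in both sets, at 72.5% ± 11.3 and 60.7% ± 6.72 (SD, n = 2 and 3), while Acvr2b took 5.09% ± 0.632 and 16.2% ± 4.71. Bmpr2, the main type II receptor for BMPs, stood at 2308 and 1247 against 1126, 1757 and 1378, and Acvr2a at 1458 and 1098 against 1258, 1472 and 1970, both with overlap. Tgfbr3, or betaglycan, the type III co-receptor that presents TGF-beta2 and binds inhibin, stood at 1291 and 340 against 2010, 2507 and 7838 and did not pass in limma (log2 fold change 2.36, SE 0.73, adjusted p = 0.0640), with 3.32 without HCN3-positive 1 and 1.40 without HCN3-negative 2; DESeq2 called it (adjusted p = 0.00898).

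The median log2 fold change between the sets was 0.27 over the 5 receptor Smads and 1.14 over the 2 inhibitory ones. Of 8 Smads, Smad5 and Smad6 were higher in the second set and none in the first, where 9.88% and 10.6% of all genes were. Smad5, a receptor Smad of the BMP branch (chromosome 13, 56703010 to 56742377, plus strand), stood at 1410 and 2954 in the first set and at 4052, 5061 and 5310 in the second. Its log2 fold change was 1.23 (SE 0.33, limma adjusted p = 0.0404), with 0.0556 in the authors' deposited table, 0.0841 in edgeR and 0.0501 in limma-voom. The limma call was lost without HCN3-positive 1 (adjusted p = 0.167), HCN3-positive 2 (0.0856), HCN3-negative 1 (0.136) or HCN3-negative 3 (0.0991). Smad6, an inhibitory Smad of the BMP branch that BMP itself induces (chromosome 9, 63953076 to 64022059, minus strand), stood at 288 and 382 against 938, 636 and 1075, without overlap. Its log2 fold change was 1.38 (SE 0.36, limma adjusted p = 0.0370) and its fold was 2.64 (adjusted p = 0.0458) in the authors' deposited table. Leaving out any 1 library ended the limma call (adjusted p of 0.167 without HCN3-positive 1, 0.131 without HCN3-positive 2, 0.0583 without HCN3-negative 1, 0.0713 without HCN3-negative 2 and 0.101 without HCN3-negative 3), and edgeR gave 0.0509 and limma-voom 0.0810.

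The other Smads did not pass in limma. Smad7, the other inhibitory Smad (chromosome 18), stood at 474 and 152 against 533, 559 and 433, with overlap. Smad4, the common partner (chromosome 18), stood at 2657 and 3437 against 4777, 4258 and 4835, apart but with a log2 fold change of only 0.61 (limma adjusted p = 0.0688). Smad2, the most abundant Smad of the receptor class by mean count (chromosome 18), stood at 4134 and 4349 against 3459, 2970 and 4392, with overlap. Smad1, Smad2 and Smad3 had log2 fold changes of 0.27, -0.25 and 0.25 (limma adjusted p of 0.485, 0.472 and 0.477). As means of the sets, Smad2 took 31.8% ± 0.0321 and 20.9% ± 2.23 of the receptor Smad level per kb and Smad5 19.2% ± 9.02 and 33.2% ± 3.35 (SD, n = 2 and 3).

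**Figure D4:**
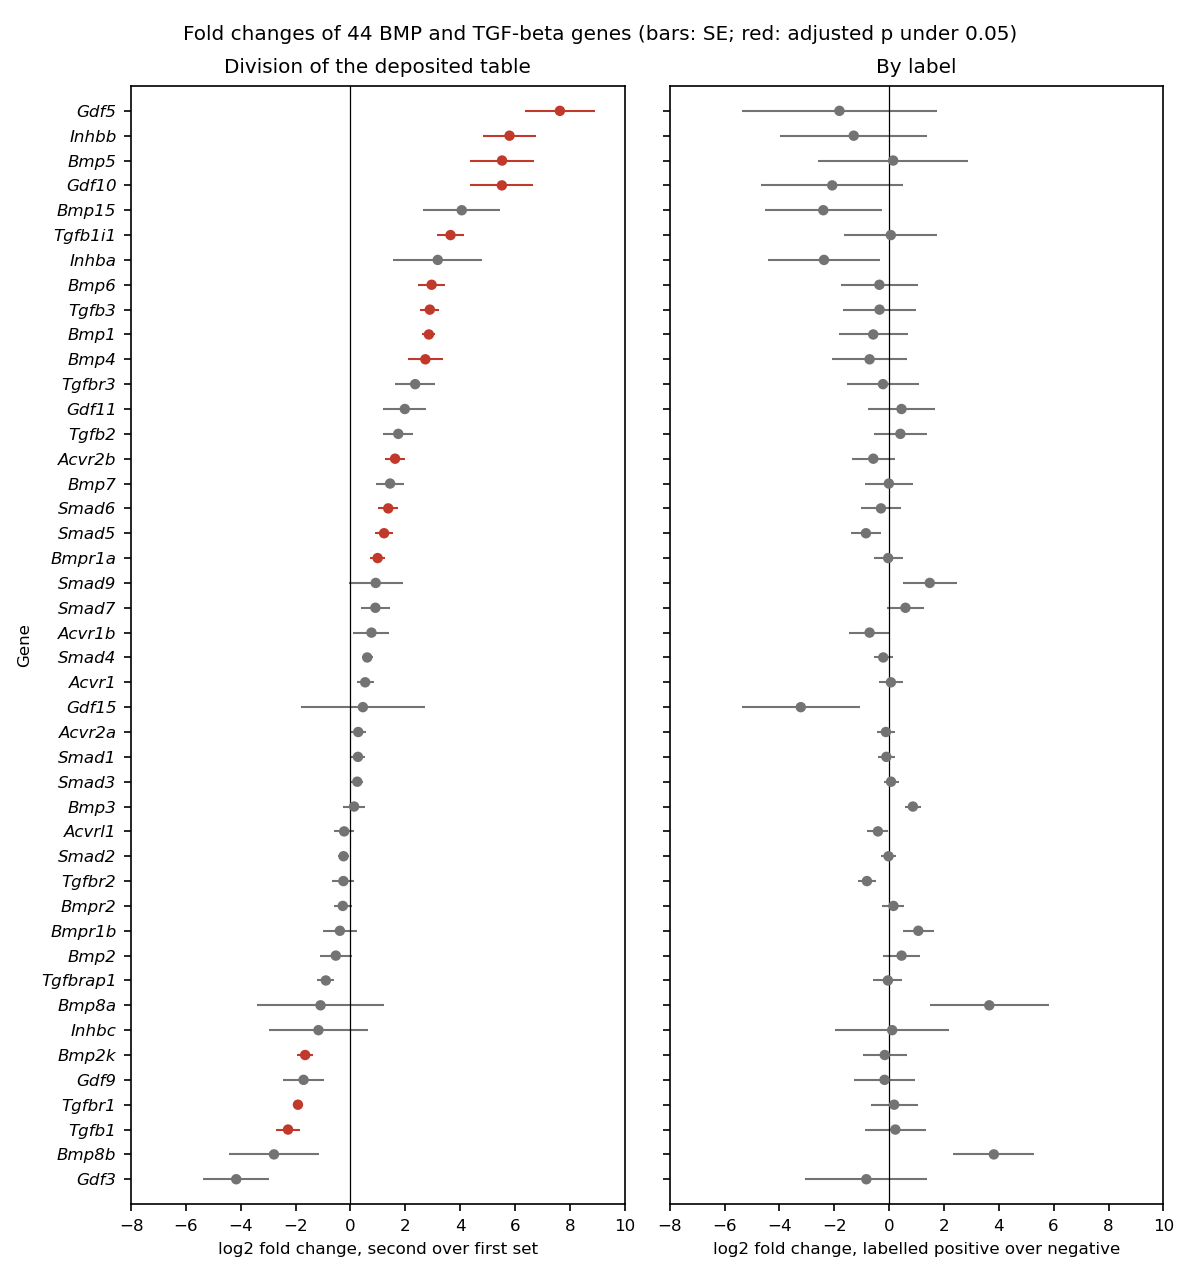
Log2 fold change of the 44 tested members as points with the limma standard error as bars, ordered by the value between the sets; the left panel gives second set over first, the right panel labelled positive over negative, and red marks a limma adjusted p under 0.05. On the left 13 red points lie above 0 and 3 below, down to Tgfb1 at -2.28, and on the right no point is red; members at 0 in the first set, such as Gdf5, have fitted values that depend on the added 1.

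Of the 4 rows that encode no ligand, receptor or Smad, 3 were called, where 20.5% of all genes were in both directions together. Bmp1 is a metalloproteinase that trims procollagen and cleaves the BMP antagonist chordin, not a BMP. It stood at 788 and 637 in the first set and at 4251, 5155 and 6245 in the second, with a log2 fold change of 2.86 (SE 0.24, limma adjusted p = 0.000791, the smallest of the 44), and the call held without any 1 library. Tgfb1i1, or Hic-5, a focal adhesion protein of smooth muscle, stood at 426 and 176 against 3885, 5078 and 2086, with a log2 fold change of 3.65 (SE 0.50, limma adjusted p = 0.00373). That call also held without any 1 library, with 3.02 without HCN3-negative 2 and 4.28 without HCN3-positive 1. Bmp2k, a kinase named for its induction by BMP2, was higher in the first set, at 1360 and 1980 against 438, 543 and 597 (log2 fold change -1.65, SE 0.30, limma adjusted p = 0.0109), and lost its call without HCN3-negative 2 (adjusted p = 0.0591). Its exons overlap Paqr3 on the opposite strand. Tgfbrap1, a receptor-associated protein, stood at 1063 and 984 against 449, 522 and 705 and did not pass (limma adjusted p = 0.0903).

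Grouped by titles in place of sets, members overlapped with few exceptions. Bmp3, an antagonist-like BMP of bone (chromosome 5, 98854415 to 98884396, plus strand), stood at 1414 and 1747 under the HCN3-positive label and at 919, 760 and 916 under the HCN3-negative one. All positive libraries exceeded all negative ones, with a log2 fold change of 0.87 (SE 0.29, limma adjusted p = 1.00), and the exact 2-sided permutation p was 0.1, the smallest that 2 against 3 can give. Smad9 and Bmp8b were the other members of 3 with every positive library above every negative one, where 5.34% of all genes were. Tgfbr2 was the only member with every positive library below, at 6565 and 5088 against 7171, 12375 and 11753 (log2 fold change -0.81, SE 0.33, limma unadjusted p = 0.0534), where 5.44% of all genes were. Bmp8b stood at 59.2 and 22.3 against 0.891, 8.88 and 0, and Bmp8a at 152 and 7.42 against 0, 0 and 22.3. They are related genes on the same chromosome, and reads that fit both may be missing from the counts, so both are uncertain. Bmp8b also overlaps Ppie. Bmpr1b, a BMP type I receptor of cartilage, stood at 1195 and 808 against 808, 459 and 279 (log2 fold change 1.06). The median log2 fold change by label was -0.11 over the 44 members and -0.03 over all genes, with 17 members above 0 (47.5% of all genes were). This sign rested on single libraries: the median over the members was 0.51 without HCN3-positive 1, with 28 above 0, and 0.07 without HCN3-negative 3, with 24 above 0.

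The wider pathway was read from 6 lists of 79 genes, of which 75 are in the table and 71 were tested. By the labels 0 were called. Between the sets 25 were higher in the second and 4 in the first by limma, where 9.88% and 10.6% of all genes were. Secreted antagonists leaned to the second set, with 7 of 18 higher there, 0 in the first and a median log2 fold change of 1.41. Nbl1, a DAN-family BMP antagonist, stood at 121 and 216 against 1242, 1371 and 2003 (log2 fold change 3.21, limma adjusted p = 0.00246). Chrdl1, a chordin-like antagonist of BMP4, had 0 reads in the first set and stood at 135, 160 and 89.3 in the second, at least 33.9-fold higher against a floor of 3 reads per library. Both calls held without any 1 library. Fst, the activin-binding follistatin, had 0 reads in the first set and stood at 60.1, 30.3 and 33.5 in the second, at least 10.9-fold higher. It lost its limma call without HCN3-positive 2 (adjusted p = 0.0648) and did not pass in the authors' deposited table (adjusted p = 0.0660). Kcp, a kielin/chordin-like regulator, rose too (log2 fold change 2.30, limma adjusted p = 0.0109) and lost its call without HCN3-positive 1 (0.0829) or HCN3-negative 1 (0.0542).

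Genes of TGF-beta storage and activation were split, with 6 of 14 higher in the second set and 2 in the first, where 9.88% and 10.6% of all genes were. The median log2 fold change of the list was 1.72, against 0.07 over all genes. Ltbp4, a matrix protein that binds latent TGF-beta, stood at 337 and 453 against 4519, 6662 and 4763 (log2 fold change 3.74, limma adjusted p = 0.000501). Ltbp1, another latent TGF-beta binding protein, stood at 591 and 1637 against 7653, 8144 and 8848 (log2 fold change 3.06, limma adjusted p = 0.00324). Both held without any 1 library, with 2.32 without HCN3-positive 1 and 3.79 without HCN3-negative 2 for Ltbp1. The microfibril genes Fbn1 and Fbn2 rose by log2 fold changes of 2.85 and 2.75 and lost their limma calls without HCN3-positive 1 (adjusted p = 0.0626 and 0.0637). The 2 genes higher in the first set, named after their values were seen, were Nrros, which anchors latent TGF-beta on myeloid cells, at 13543 and 19977 against 645, 977 and 2422 (log2 fold change -3.83, limma adjusted p = 0.00384), and Thbs1, a thrombospondin that can activate it (log2 fold change -1.76, limma adjusted p = 0.0103). Both lost their limma calls without HCN3-positive 1 (adjusted p = 0.0547 and 0.119).

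Of 8 other ligands, co-receptors and decoys tested, 3 were higher in the second set and 0 in the first (median log2 fold change 1.94, or 1.75 with Mstn, at 0 in the first set, placed at its bound). Bambi, a kinase-less decoy receptor, stood at 288 and 644 against 1964, 2702 and 3198 (log2 fold change 2.58, limma adjusted p = 0.00577), and its call held without any 1 library. Eng, the endoglin co-receptor of endothelium, rose by a log2 fold change of 2.25 (limma adjusted p = 0.0173), which was lost without HCN3-positive 1 (0.0731), HCN3-negative 1 (0.0696) or HCN3-negative 2 (0.113). Eng did not pass in the authors' deposited table (adjusted p = 0.0792). Amhr2, the receptor of anti-Müllerian hormone, was low in every library, at 0 to 45.4. It did not pass in the authors' deposited table (adjusted p = 0.294), edgeR (0.0844) or limma-voom (0.154). Its call (limma adjusted p = 0.0472, log2 fold change 4.09) was lost without any 1 of them, and its log2 fold change was 4.72 without HCN3-positive 1, 4.74 without HCN3-positive 2 and 3.45 without HCN3-negative 2. Intracellular regulators lay near the values of all genes (median log2 fold change 0.07, with 9.88% and 10.6% called), at a median of 0.11, with 2 of 16 higher in the second set (Fkbp1a, which holds type I receptors inactive, and the corepressor Tgif2) and 1 in the first, the ubiquitin ligase Wwp1 (4873 and 8711 against 1893, 2357 and 1720, log2 fold change -1.72, limma adjusted p = 0.00799). Wwp1 held without any 1 library. Fkbp1a did not pass in the authors' deposited table (adjusted p = 0.0868). It lost its limma call without HCN3-positive 1 (log2 fold change 0.82) or HCN3-negative 1 (adjusted p = 0.0582), and Tgif2 without any 1 library other than HCN3-negative 2.

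Genes known to respond to BMP were higher in the second set in 3 of 8 cases and in the first in 0, where 9.88% and 10.6% of all genes were. The median log2 fold change of the list was 1.08, against 0.07 over all genes. Hey1, a bHLH repressor that also answers to Notch, stood at 195 and 338 against 1492, 1283 and 1580 (log2 fold change 2.49, limma adjusted p = 0.00355) and held without any 1 library. Atoh8, a bHLH factor, had a log2 fold change of 2.23 (limma adjusted p = 0.0206), lost without HCN3-positive 2 (0.0967), HCN3-negative 1 (0.0960) or HCN3-negative 2 (0.0681). Id1, a classical BMP target, stood at 651 and 528 against 1019, 1521 and 1177 (log2 fold change 1.06, limma adjusted p = 0.0432), a call lost without any 1 library. It did not pass in the authors' deposited table (adjusted p = 0.113), edgeR (0.0554) or limma-voom (0.0751). Of 10 genes known to respond to TGF-beta, 4 were higher in the second set and 1 in the first (median log2 fold change 2.10), beside the same shares of all genes, 9.88% and 10.6%. Tgfbi, a matrix protein also made by macrophages, was the one higher in the first set, at 20472 and 19280 against 5490, 5998 and 5056 (log2 fold change -1.85, limma adjusted p = 0.000902), and held without any 1 library. Ctgf, Col1a1 and Postn, which are matrix and fibroblast genes, rose by log2 fold changes of 2.59, 3.18 and 2.97. Their limma calls were lost without HCN3-positive 1 (adjusted p of 0.0616, 0.0537 and 0.0858), for Col1a1 and Postn also without HCN3-negative 2 (0.0593 and 0.105), and for Postn without HCN3-positive 2 (0.0504). Postn did not pass in the authors' deposited table (adjusted p = 0.150). The remaining call was Tagln, an actin-binding protein of smooth muscle that also stands on that marker list, at 768 and 590 against 10564, 16062 and 2550 (log2 fold change 3.49, limma adjusted p = 0.0163). Tagln did not pass in the authors' deposited table (adjusted p = 0.0738) or in limma-voom (0.0694). Its call held only without HCN3-negative 3 (log2 fold change 4.27) and was lost without HCN3-positive 1 (limma adjusted p = 0.126), HCN3-positive 2 (0.0700), HCN3-negative 1 (0.0577) or HCN3-negative 2 (0.116). Col1a1 also stands on the fibroblast matrix list, so it is not separate from those marker sums.

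**Figure D5:**
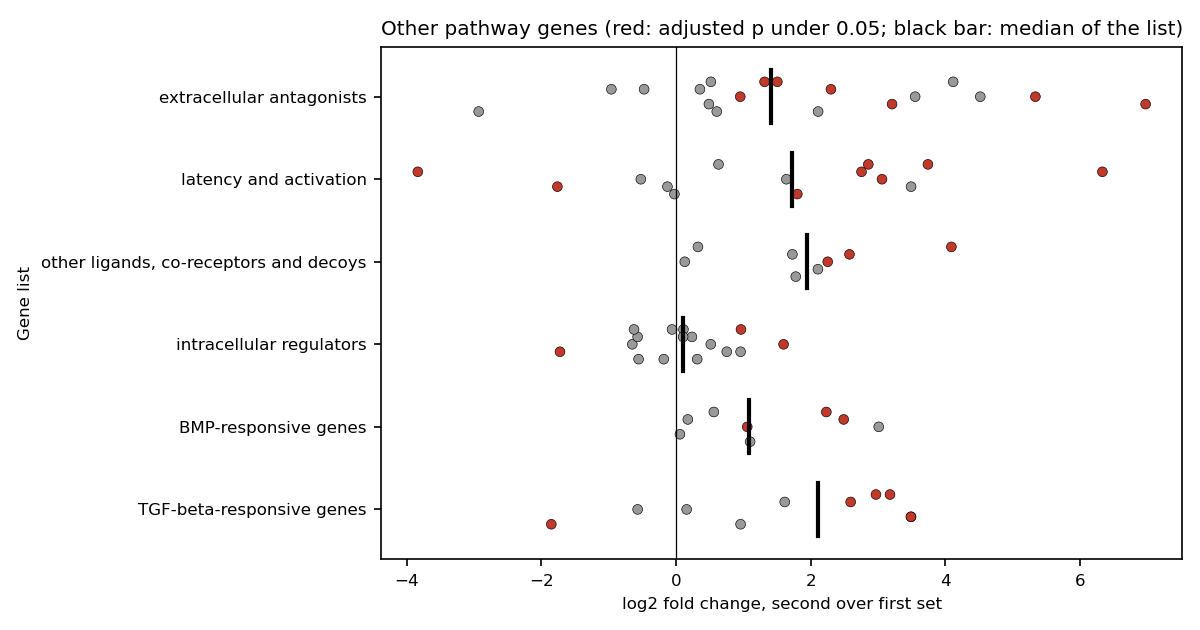
Log2 fold change, second set over first, of each tested gene in the 6 pathway lists, 1 point per gene, red where the limma adjusted p was under 0.05, with a black bar at each list's median. The medians run from 0.11 for intracellular regulators to 2.10 for TGF-beta-responsive genes, against 0.07 for all genes tested.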

How the data were processed

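Cells were sorted by HCN3 antibody, RNA was taken with a Qiagen micro kit, and libraries were made with Clontech and Nextera XT kits, per the labels' protocols. Build mm10 and, in no stated order, DESeq 1.18.0, HTSeq 0.6.1p2, TopHat2 2.0.11, cutadapt 1.8, Trim Galore 0.40, FastQC 0.11.2 and bcl2fastq 2.17 are listed per the submitters' processing notes. The annotation behind the counts was "not given in the sources used here". Per library, the authors deposited a signal, per the file headers (read counts divided by a size factor, here "normalized counts"), means over an unnamed pair of groups, their ratio (fold), its log2 value, and p-values with adjusted p-values. Of the summed counts of genes and of 3 summary rows, 13.5% to 18.7% were not uniquely aligned, 8.58% to 14.0% lay in no gene and 0.792% to 2.32% were ambiguous. These 3 summary rows stayed out of every test, and the authors' 2 columns of group means were not used.

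The members and lists were chosen with earlier results of these data known. Each library's values, divided by the smallest one above 0, gave whole reads for 100% of values (tolerance 0.01). Of normalized counts, 3 reads make 2.23 to 4.23, depending on the library. Such floors cover counting error only. All genes were fitted with R 4.3.3 and limma 3.58.1, with an intensity trend, on log2(normalized count + 1), for 16579 genes with a mean of at least 5, Benjamini-Hochberg adjusted over all of them, threshold 0.05, as a 2-sided test. Fold changes on this scale understate those of low genes. Groups came from the titles, or from the division that the authors' fold column uses. Alternatives were limma-voom, DESeq2 1.42.0 and edgeR 4.0.16 (its quasi-likelihood test) on the recovered reads, TMM scaling, pseudocounts of 0.5 and 5, no filter or a mean of 50, a replicate block, and leaving out each library, where a lone sample is assumed to vary like the others. Values per library are given for members that pass between the sets, the 5 with the smallest p by label and the highest of each role, and for up to 4 genes of each pathway list by p. Further members were named after their values were seen. Exon lengths are from GENCODE M21, and promoters from RefSeq. The fitting script was tested on simulated data.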

Additional observations from a re-analysis of the deposited data

How the results depend on the processing

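By label, limma called 0 genes higher and 0 lower (157 at an unadjusted p under 0.05), as did edgeR (165), while DESeq2 called 1 higher and 9 lower (464 unadjusted). With the replicate number as a block, limma called 0 genes (26 unadjusted). The labels state no pairing by number. Same-numbered libraries had correlations of -0.53 for number 1 and -0.69 for number 2 in their deviations from the group means, but with 2 HCN3-positive libraries these deviations mirror each other, so the check cannot tell whether the numbers pair the libraries. Between the sets, limma called 1638 genes higher in the second, against 851 with limma-voom and 563 to 1682 leaving out 1 library. It called 1758 genes higher in the first, against 678 to 1644 leaving out 1 library. For members, the 13 and 3 calls became 7 and 3 with limma-voom, 9 and 4 with edgeR, and 18 and 5 with DESeq2, and 5 to 11 and 2 to 3 leaving out 1 library. For pathway genes, the 25 and 4 calls became 11 to 19 and 2 to 5. Of 40 genes named with a limma call, all 40 kept it with DESeq2, TMM scaling, no filter or a pseudocount of 0.5, while edgeR lost 6 and limma-voom lost 9. Leaving out 1 library in turn ended 71 such calls and left 129. Between the sets, 10 of the 28 uncalled members turned sign when 1 library was left out. The log2 fold change of Bmp3 ranged from -0.31 to 0.58 (-0.18 without HCN3-positive 2, -0.31 without HCN3-negative 2), and that of Bmp8a from -4.72 to 2.54 (2.54 without HCN3-positive 1, 0.18 without HCN3-negative 1). Bmpr1b ranged from -1.07 to 0.30 (0.30 without HCN3-positive 1, 0.12 without HCN3-negative 3), and Tgfbr2 from -0.71 to 0.20 (0.03 without HCN3-positive 2, 0.20 without HCN3-negative 2). Gdf15 ranged from -3.30 to 4.202 (-3.30 without HCN3-positive 1, -0.54 without HCN3-negative 1) and was also below 0 with edgeR (-1.59), DESeq2 (-1.54) and a pseudocount of 5 (-0.31). Smad9 ranged from -0.18 (without HCN3-negative 2) to 2.03, Bmp2 from -0.91 to 0.025 (without HCN3-negative 3), Bmpr2 from -0.72 to 0.16 (without HCN3-positive 1), Inhbc from -3.40 to 1.07 (without HCN3-negative 2), and Acvrl1 from -0.54 to 0.057 (without HCN3-positive 2). The cause was not tested. With 2 against 3 libraries an exact permutation p cannot go below 0.1.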
